A study of Mus musculus with 4 samples.

Results

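The endoplasmic reticulum (ER) unfolded protein response was examined through 10 of its genes, *Hspa5*, *Hsp90b1*, *Calr*, *Pdia4*, *Dnajb9*, *Xbp1*, *Herpud1*, *Sdf2l1*, *Creld2* and *Manf*. They were chosen by name, with earlier results of these data known, and all 10 were found among the 20197 genes of the table. The values come from RNA-sequencing of wild-type 4T1 cells, a mouse mammary tumor line grown in culture in DMEM with serum and used as a model of metastatic triple negative breast cancer. Before sorting, the cells were exposed to MitoSpy Red at 20 nM, a dye drawn into mitochondria by their membrane potential (MMP). The brightest 5% were sorted as high MMP cells and the dimmest 5% as low MMP cells, with 2 samples per group and 100000 cells per sample, to ask how gene expression differs with mitochondrial activity. Each comparison is between these extremes of 1 cell line, and no unsorted sample was analysed here.

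When unfolded proteins build up in the ER, the BiP chaperone (*Hspa5*) is drawn away from sensors in the ER membrane. The sensor IRE1 then splices the *Xbp1* mRNA, ATF6 travels to the Golgi to be cut into a transcription factor, and PERK slows translation and raises ATF4. XBP1 and ATF6 raise chaperones, disulfide isomerases and the machinery that exports misfolded proteins for degradation, and secretory epithelia such as mammary cells keep much of this equipment at high levels. A gene-level read count does not separate spliced from unspliced *Xbp1*, so only its total level is given.

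Promoter stretches are shown for the members that hold the ER stress response element (ERSE) or its variant, the sequences through which ATF6 and XBP1 are known to act. The members were chosen as known genes of this response, so their motif shares describe them and test nothing. RefSeq promoters (GRCm38.p6, 250 bases before to 50 bases after each gene start) were matched for 9 of the 10 genes; *Manf* had no entry. The exact ERSE, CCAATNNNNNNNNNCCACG on either strand, was present in 0.119% of all 32851 promoters and in those of 4 of the 9 members, *Hspa5*, *Hsp90b1*, *Calr* and *Creld2*. The related ERSE-II, which is ATTGG, any base and CCACG, was present in 0.0365% of all promoters and in 1 member, *Herpud1*. The exact letters TGACGTGG, from the core of the XBP1 element, were present in 0.676% of all promoters and in 0 members. Variants of this core were not searched. The *Hspa5* stretch below holds TGACGTGA, which differs from it in the last base. All motifs were searched on both strands. An ERSE overlapped the XBP1 core in 2 promoters and an ERSE-II did so in 1, none of them a member's, and 0 promoters had overlapping ERSE and ERSE-II matches. The sequences below are written 5′ to 3′ on the strand of the gene, with the match in capitals, and are GRCm38.p6 sequence upstream of the RefSeq start; the GENCODE models of *Hspa5* and *Hsp90b1* reach further upstream, into the window of *Hspa5* and the proximal one of *Hsp90b1*.

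*Hspa5* ERSE (chr2:34771840-34772089, gene on the + strand): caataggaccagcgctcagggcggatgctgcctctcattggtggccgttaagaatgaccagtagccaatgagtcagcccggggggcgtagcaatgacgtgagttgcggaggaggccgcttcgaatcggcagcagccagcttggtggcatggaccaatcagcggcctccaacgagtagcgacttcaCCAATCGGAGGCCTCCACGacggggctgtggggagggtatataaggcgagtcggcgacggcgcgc
*Hsp90b1* distal ERSE (chr10:86705608-86705686, gene on the - strand): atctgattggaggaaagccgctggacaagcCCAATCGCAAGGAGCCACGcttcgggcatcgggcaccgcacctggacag
*Hsp90b1* proximal ERSE (chr10:86705503-86705581, gene on the - strand): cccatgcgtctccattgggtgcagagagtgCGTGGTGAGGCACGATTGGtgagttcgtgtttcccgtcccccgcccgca
*Calr* ERSE (chr8:84847045-84847123, gene on the - strand): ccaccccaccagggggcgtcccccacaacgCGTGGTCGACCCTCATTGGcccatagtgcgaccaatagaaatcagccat
*Creld2* ERSE (chr15:88819490-88819568, gene on the + strand): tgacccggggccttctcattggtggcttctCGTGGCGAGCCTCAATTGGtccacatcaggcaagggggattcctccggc
*Herpud1* ERSE-II (chr8:94386347-94386417, gene on the + strand): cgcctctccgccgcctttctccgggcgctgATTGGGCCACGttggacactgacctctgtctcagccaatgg

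In *Hspa5* the match lay 65 to 47 bases before the RefSeq start. In *Hsp90b1* one match lay 212 to 194 and the other, on the opposite strand, 107 to 89 bases before it. Those of *Calr* (162 to 144) and *Creld2* (126 to 108) were also on the opposite strand, and the ERSE-II of *Herpud1* lay 52 to 42 bases before the start. The exact letters were not in the windows of *Pdia4*, *Dnajb9*, *Xbp1* and *Sdf2l1*. Among the other genes of the pathway, 6 of 67 with a promoter had an ERSE (*Canx*, *Derl3*, *Dnajc3*, *Ero1b*, *Pdia6* and *Syvn1*) and 1 of 67, *Dnajb11*, had an ERSE-II. The exact XBP1 core letters TGACGTGG were in 3 of 67 (*Txndc11*, *Txndc5* and *Ube2j1*).

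Values are normalised reads, on a scale on which each library sums to 20000000. The libraries held 22591970 to 26395015 reads, and each member had at least 207 reads in every library, so none was lost to a filter on low values. The high MMP samples differed from each other more than the low MMP samples did. Across the 12902 genes averaging 10 or more normalised reads, the log2 values of the replicates differed with an SD of 0.398 in high MMP and 0.288 in low MMP cells. High MMP replicate 1 stood apart in its protein-coding mitochondrial transcripts, which took 1.27% of its reads (Wilson 95% interval 1.26% to 1.27%), against 2.02% to 2.24% in the other libraries. The epithelial identity of the cells was visible in 7 of 8 fixed markers, with summed levels of 50915 and 38102 normalised reads in high MMP and 44039 and 50331 in low MMP cells. Of 8 immune markers 4 were in the table, with summed levels of 72.0 to 158 that came mostly from *Cd68*, and *Ptprc*, which marks all leukocytes, was at 0 to 1.77. Of 6 plasma cell markers, which would mark professional secretory cells, 2 were in the table. *Sdc1*, which epithelial cells also express, was at 3204 to 3475 normalised reads and *Prdm1* at 6.10 to 14.2. Of 8 fibroblast and endothelial markers 5 were in the table, with summed levels of 340 and 377 in high MMP and 550.1 and 610.0 in low MMP cells, nearly all from *Pdgfra*. The endothelial *Cdh5* was at 0 to 2.66. The part of these markers in the members' values was not tested.

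The 10 genes together took 0.278% of the reads of high MMP replicate 1 (Wilson 95% interval 0.276% to 0.280%) and 0.319% of those of high MMP replicate 2 (0.316% to 0.321%). In low MMP cells they took 0.33004% (0.328% to 0.332%) and 0.377% (0.374% to 0.379%). Both high MMP samples were thus below both low MMP samples, with group means of 0.298% ± 0.0290 and 0.353% ± 0.0331 (SD, n = 2 each). These intervals cover counting error only, and the difference of -0.0554 percentage points compares with a pooled SD between replicates of 0.0311. It was -0.0348 without high MMP replicate 1 and -0.0319 without low MMP replicate 2, close to that SD. The sum is weighted to the most abundant members. *Hspa5* alone took 0.116% and 0.1633% of the reads in high MMP replicates 1 and 2. In low MMP replicates 1 and 2 it took 0.1645% and 0.183%. In bulk samples, fewer cells with a high level and less RNA per cell cannot be told apart.

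Per length, *Hspa5* was the most abundant member, with 5499 to 8663 normalised reads per kilobase of exon over the 4 samples. *Hsp90b1* (3087 to 4322) and *Calr* (3073 to 3957) came next and did not differ beyond their spread. *Pdia4* (1006 to 1262) and *Manf* (685 to 886) followed, each clear of its neighbours. *Xbp1* (399 to 488), *Herpud1* (397 to 470.2) and *Creld2* (384 to 452) could not be ordered within their spread, and *Sdf2l1* (156 to 211) and *Dnajb9* (81.7 to 162) were the lowest and overlapped. *Hspa5* alone held 41.9% of the members' reads in high MMP replicate 1 and 48.6% to 51.2% in the other libraries.

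**Figure D1:**
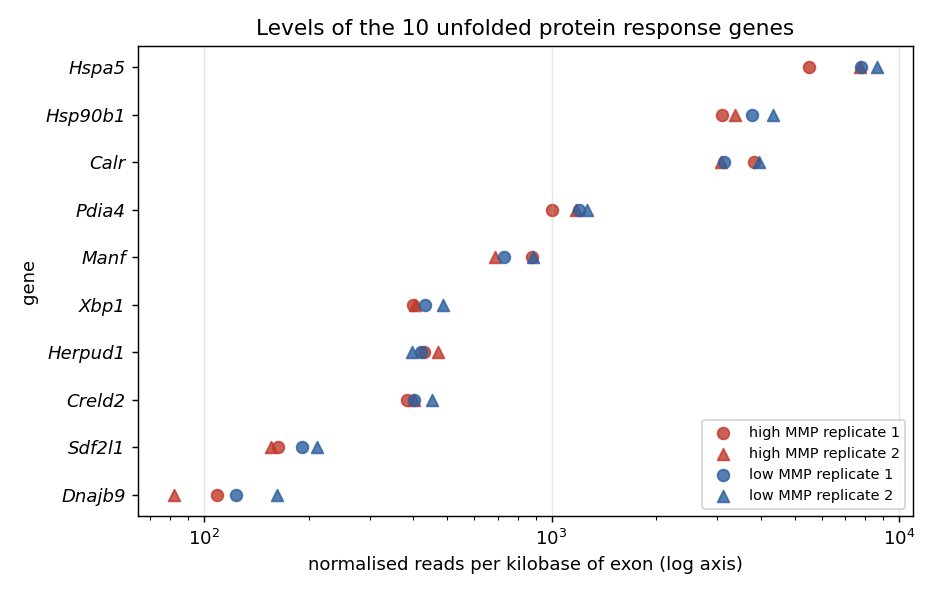
Levels of the 10 genes in each of the 4 samples, in normalised reads per kilobase of exon on a log axis, with high MMP samples in red, low MMP samples in blue, circles for replicate 1 and triangles for replicate 2. The genes span from *Dnajb9*, at 81.7 to 162, to *Hspa5*, at 5499 to 8663.

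Across the 2 groups, 9 of the 10 genes had a lower mean in high MMP cells on the log2(value + 1) scale (8 of 10 after median-of-ratios rescaling), and *Herpud1* had a higher one. The mean was also lower in 58.6% of all genes and in 57.0% of those averaging 100 or more normalised reads. None passed in limma after adjustment over all genes, where 0 of 20197 genes were called. The smallest adjusted p among the members was 0.486, for *Sdf2l1*. At an unadjusted p under 0.05, limma had 1 of 10 members, against 9.96% of all genes (6.01% lower and 3.95% higher in high MMP cells). In 7 genes both high MMP samples lay below both low MMP samples, a pattern seen in 24.5% of all genes and in 22.7% of the 9999 genes that averaged 100 or more normalised reads, a level that all 10 members reach. *Herpud1* showed the opposite order, which was seen in 13.5% and 14.9% of these genes. The count of 7 depended on small gaps. After median-of-ratios rescaling it was 4 (*Dnajb9*, *Hsp90b1*, *Sdf2l1* and *Xbp1*), beside 21% of all genes, and after quantile normalization it was 5, beside 16.9%. The median difference of the members was -0.18, beside -0.044 for all genes and -0.026 for those averaging 100 or more.

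On whole reads recovered from the normalised values, edgeR called 0 genes, members included, and at an unadjusted p under 0.05 it had 0 members beside 7.05% of all genes. With the replicate number as a block, edgeR called 0 members beside 0.525% of all genes, and DESeq2 called 0 beside 0.985% of those it adjusted. *Dnajb9* was the 1 member with an unadjusted p under 0.05 in each of these last fits, beside 4.55% and 3.27% of all genes. Crossing the replicate numbers in the block, a choice made after seeing the data, gave edgeR 1 member called (*Dnajb9*) beside 3.63% of all genes, and 4 members with an unadjusted p under 0.05 (*Dnajb9*, *Hsp90b1*, *Hspa5* and *Sdf2l1*) beside 11.9%. The same crossed block in limma called 0 genes, members included. It had 2 members at an unadjusted p under 0.05 (*Dnajb9* and *Sdf2l1*), beside 2128 of all 20197 genes. In DESeq2 and after median-of-ratios rescaling 8 of the 10 members were lower, *Calr* having turned.

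**Figure D2:**
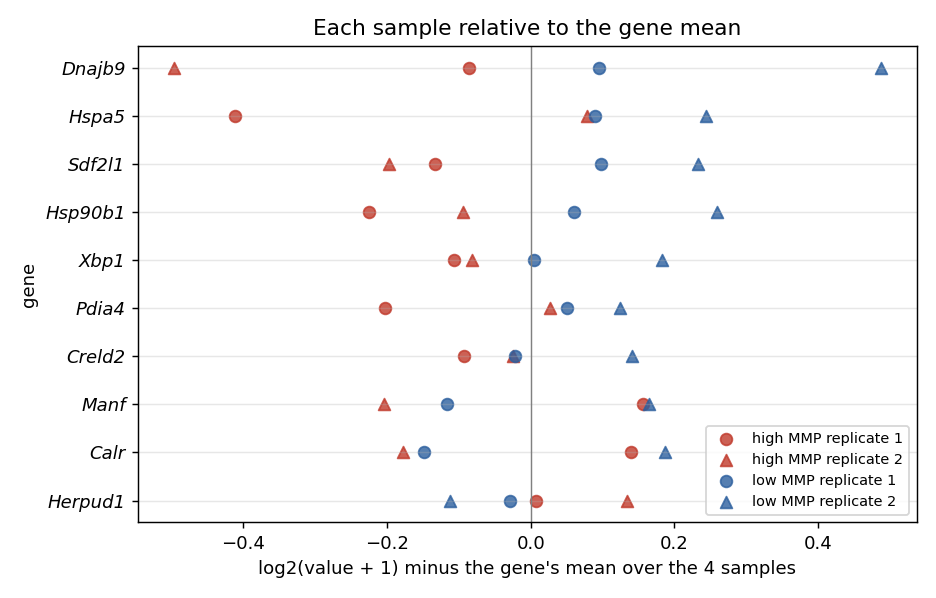
Each sample's log2(value + 1) minus the gene's mean over the 4 samples, for the 10 genes sorted by the difference between groups (red high MMP, blue low MMP, circles replicate 1, triangles replicate 2). Low MMP replicate 2 is the rightmost point in 9 genes and the leftmost in *Herpud1*, and the red points lie left of both blue points in 7 genes.

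Among the chaperones, *Hspa5* (ENSMUSG00000026864, GRCm38 chromosome 2, 34771970 to 34777547, + strand) encodes BiP, the ER member of the Hsp70 family. It had 23254 and 32652 normalised reads in high MMP replicates 1 and 2, and 32907 and 36635 in low MMP replicates 1 and 2. High MMP replicate 1 was the low sample, and high MMP replicate 2 was close to low MMP replicate 1, so the order of the groups rests on a small gap. The difference was -0.33 on the log2 scale (SE 0.22, 95% interval -0.93 to 0.26, limma adjusted p 0.732), and it was -0.089 without high MMP replicate 1 and -0.58 without high MMP replicate 2.

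*Hsp90b1* (ENSMUSG00000020048, chromosome 10, 86690209 to 86705509, - strand) encodes GRP94, the ER form of Hsp90, which folds integrins and Toll-like receptors. It had 12446 and 13632 normalised reads in high MMP and 15169 and 17426 in low MMP cells. The groups did not overlap, and the low MMP replicates lay further apart from each other than the nearest samples of the groups did. The ratio of the group means was 0.800, and the log2 difference was -0.32 (SE 0.13, 95% interval -0.67 to 0.033, limma adjusted p 0.549). Its exons share 415 of 4032 bases with a pseudogene on the opposite strand, *1810014B01Rik*.

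*Calr* (ENSMUSG00000003814, chromosome 8, 84841850 to 84846934, - strand) encodes calreticulin, a calcium-binding chaperone of glycoproteins. It had 11022 and 8849 normalised reads in high MMP and 9029 and 11395 in low MMP cells. High MMP replicate 1 and low MMP replicate 2 were the high samples, the groups overlapped, and the difference was -0.039 (SE 0.18, 95% interval -0.54 to 0.46). Its sign turned after median-of-ratios rescaling, to 0.0029.

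Among the enzymes and co-chaperones of folding, *Pdia4* (ENSMUSG00000025823, chromosome 6, 47796141 to 47813430, - strand) encodes the disulfide isomerase ERp72. It had 2413 and 2828 normalised reads in high MMP and 2878 and 3029 in low MMP cells, with high MMP replicate 1 below the other samples. The difference was -0.18 (SE 0.11, limma adjusted p 0.713), and -0.062 without high MMP replicate 1 and -0.29 without high MMP replicate 2.

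*Dnajb9* (ENSMUSG00000014905, chromosome 12, 44205559 to 44210326, - strand) encodes ERdj4, a J-domain co-chaperone of BiP that keeps IRE1 inactive and is itself raised by XBP1. It had 277 and 208 normalised reads in high MMP and 315 and 413 in low MMP cells, from 366, 249, 361 and 467 reads. The ratio of the group means was 0.667, and the log2 difference of -0.58 had the largest size among the members (SE 0.22, 95% interval -1.17 to 0.0047, limma adjusted p 0.505). It lay between -0.79, without high MMP replicate 1, and -0.38, without high MMP replicate 2. Its adjusted p was 0.826 in limma and 0.434 in edgeR when replicate numbers were blocked, while with the crossed block it was 0.435 in limma and 0.00172 in edgeR.

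*Sdf2l1* (ENSMUSG00000022769, chromosome 16, 17130138 to 17132383, - strand) encodes an ER-resident partner of J-domain co-chaperones. It had 181 and 173 normalised reads in high MMP and 213 and 234 in low MMP cells, from 207 to 264 reads per library. Both groups were tight, at 177 ± 5.57 and 223 ± 14.8 (SD, n = 2 each). The difference was -0.33 (SE 0.12, 95% interval -0.65 to -0.013), and *Sdf2l1* was the only member with an unadjusted p under 0.05 in limma as run on all genes with pseudocount 1 (0.0445, adjusted p 0.486). That was not kept with a pseudocount of 10, without the variance trend, after either rescaling or with the replicate block, where no member was under 0.05. With genes averaging under 1 left out, *Dnajb9* was under 0.05 in its place, beside 1370 of the genes kept. The same held with genes averaging under 10 left out, beside 1059 of 12902 genes.

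The transcription factor *Xbp1* (ENSMUSG00000020484, chromosome 11, 5520659 to 5525893, + strand) had 1296 and 1319 normalised reads in high MMP and 1400.05 and 1584 in low MMP cells. The high MMP samples lay close together and below both low MMP samples. The difference was -0.19 (SE 0.094, 95% interval -0.44 to 0.068, limma adjusted p 0.644), and -0.099 without low MMP replicate 2.

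*Herpud1* (ENSMUSG00000031770, chromosome 8, 94386438 to 94395377, + strand) encodes an ER membrane protein with a ubiquitin-like domain that helps to assemble the HRD1 complex of ER-associated degradation, and it carries the ERSE-II shown above. It had 1005 and 1097 normalised reads in high MMP and 979.9 and 925 in low MMP cells. It was the only member with both high MMP samples above both low MMP samples, by a ratio of means of 1.10 and a difference of 0.14 (SE 0.089, 95% interval -0.10 to 0.38, limma adjusted p 0.716). Without high MMP replicate 2 the difference was 0.078.

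Of the small secreted or retained proteins of the response, *Creld2* (ENSMUSG00000023272, chromosome 15, 88819646 to 88826683, + strand), an ER protein with isomerase activity, had 524 and 549.8 normalised reads in high MMP and 551 and 617 in low MMP cells. High MMP replicate 2 and low MMP replicate 1 were almost equal, and the difference was -0.12 (SE 0.099, limma adjusted p 0.797), and -0.037 without low MMP replicate 2 and -0.20 without low MMP replicate 1. *Manf* (ENSMUSG00000032575, chromosome 9, 106838312 to 106891979, - strand) encodes a BiP-binding protein that is secreted under ER calcium loss. It had 3101 and 2415 normalised reads in high MMP and 2567 and 3121 in low MMP cells, with high MMP replicate 1 and low MMP replicate 2 on top as for *Calr*, and a difference of -0.049 (SE 0.17). Its exons share 146 of 3524 bases with *Dcaf1* on the opposite strand, and the strand setting of the counting is not given in the sources used here.

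**Figure D3:**
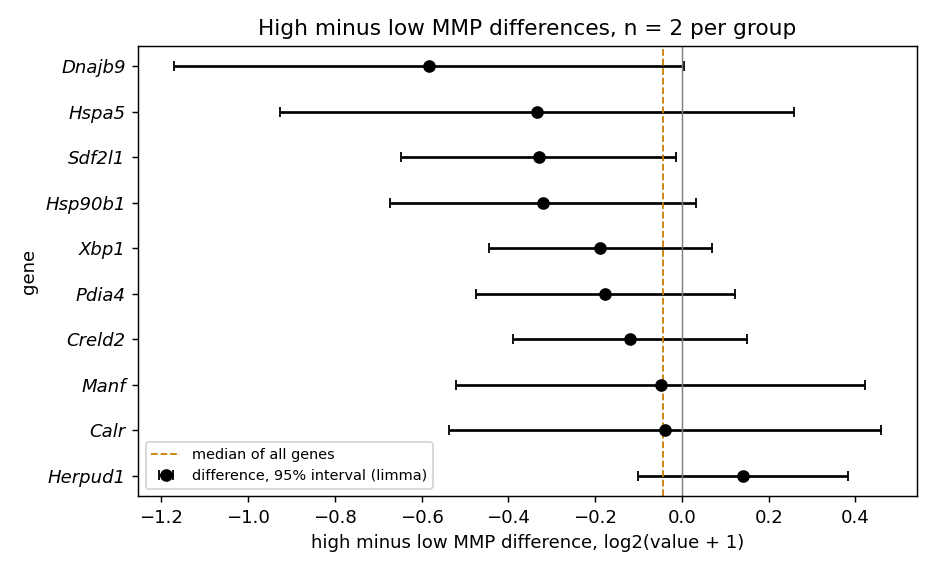
High minus low MMP difference of each gene on the log2(value + 1) scale, with 95% intervals from limma (2 samples per group) and the median of all genes as a dashed line. *Sdf2l1* has the only interval that does not reach 0, and *Herpud1* the only point above 0.

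Low MMP replicate 2 had the highest value of the 4 samples in 9 of the 10 genes, all but *Herpud1*, where it was the lowest. Low MMP replicate 2 was the highest sample in 28.8% of all genes, and in 21.5% of those averaging 100 or more. High MMP replicate 1 was the lowest in 5 members and high MMP replicate 2 in 4. The summed level of 10 fixed G2/M genes, which mark dividing cells, was 83861 and 90901 normalised reads in high MMP cells. In low MMP cells it was 56083 and 57825. *Top2a* alone gave 37134 and 38824 of these in high MMP and 18715 and 20473 in low MMP cells. In 7 of the 10 both high MMP samples lay above both low MMP samples, beside 13.5% of all genes. In 1, *Ccnb2*, both lay below, beside 24.5% of all genes. *Mki67* also had a lower mean in high MMP cells (difference -0.11). The part of these genes in the members' differences was not tested.

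The remainder of the pathway was read from 6 lists, of which 80 of 81 genes were in the table. In limma 0 of 80 genes passed adjustment, and 1 had an unadjusted p under 0.05, beside 9.96% of all genes. In 18 of the 80 both high MMP samples lay below both low MMP samples (22.5%) and in 2 above them (*Ppib* and *Chac1*), beside 24.5% and 13.5% of all genes. The median difference of the 80 genes was -0.070, and 58 of them had a lower mean in high MMP cells (72.5%), beside 58.6% of all genes.

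Of the sensors and the proteases that activate ATF6, 4 of 6 had a lower mean in high MMP cells and 2 a higher one. *Ern1*, which encodes IRE1, had 1034 and 1397 normalised reads in high MMP and 1383 and 1399.6 in low MMP cells, so that only high MMP replicate 1 was low (difference -0.21, SE 0.17; 0.0058 without that library). *Eif2ak3*, which encodes PERK, differed by -0.034 (SE 0.15), with a sign that turned under other scalings. *Atf6* differed by 0.15 (SE 0.15) and its homologue *Atf6b* by -0.14 (SE 0.21). Of the Golgi proteases, *Mbtps1* differed by -0.29 (SE 0.18), or -0.054 without high MMP replicate 1, and *Mbtps2* by 0.093 (SE 0.12).

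Among 16 other ER chaperones and co-chaperones, 14 had a lower mean in high MMP cells (median -0.075), beside 58.6% of all genes. In 3 the high MMP samples lay below with no overlap (18.75%, beside 24.5% of all genes). They were *Canx*, *Sdf2* and *Creld1*, named after their values were seen. *Hyou1*, an Hsp70-like exchange factor of BiP, had 2974 normalised reads in high MMP replicate 1 and 5097 in replicate 2, against 4613 and 4622 in low MMP cells. Its difference of -0.25 (SE 0.28) was 0.14 without high MMP replicate 1. *Ppib*, the ER cyclophilin, differed by 0.12 (SE 0.094), or 0.077 without high MMP replicate 2.

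Of 11 other disulfide isomerases and oxidases, 9 had a lower mean, with a median of -0.15, and 4 lay below with no overlap (36.4%, beside 24.5% of all genes). These 4 were *Txndc11* and, named after their values were seen, *P4hb*, *Pdia3* and *Pdia6*. *Txndc11*, a thioredoxin-domain protein of the ER, was the only gene of the 6 lists with an unadjusted limma p under 0.05. It had 446 and 525 normalised reads in high MMP cells against 623 and 685, with a difference of -0.43 (SE 0.12, limma adjusted p 0.472). *Ero1b*, one of the oxidases that recharge the isomerases, had the highest difference of the list at 0.25 (SE 0.17), or 0.095 without low MMP replicate 1.

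Of 18 genes of ER-associated degradation, 16 had a lower mean (median -0.11) and 4 lay below with no overlap (22.2%, beside 24.5% of all genes). These 4 were *Syvn1* and, named after their values were seen, *Edem1*, *Derl1* and *Selenos*. *Syvn1*, the HRD1 ubiquitin ligase, had 731 and 926 normalised reads in high MMP cells against 1011 and 1104, with a difference of -0.36 (SE 0.14, limma adjusted p 0.543), or -0.19 without high MMP replicate 1. *Ube2j1*, a ubiquitin-conjugating enzyme of the ER membrane, differed by 0.066 (SE 0.0865). High MMP replicate 1 was the lowest sample in 14 of the 18 genes, beside 36.9% of all genes.

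Translocation and signal peptide processing lay near the median of all genes, at -0.025 over 17 genes, of which 11 had a lower mean. In 6 of the 17 (35.3%) both high MMP samples lay below both low MMP samples, and in 0 above them, beside 24.5% and 13.5% of all genes. *Sec61a1*, the pore of the translocon, differed by -0.22 (SE 0.098), or -0.14 without high MMP replicate 1, and *Ssr4*, a subunit of the translocon-associated complex, by 0.12 (SE 0.14).

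The ATF4 and CHOP arm had a median of 0.088 over 12 genes, of which 8 had a higher mean in high MMP cells. *Atf3* had 1934 and 490.4 normalised reads in high MMP and 377 and 1515 in low MMP cells, so that its spread within each group exceeded its difference between them (0.36, SE 0.97). *Ddit3*, which encodes CHOP, also varied within groups, with 190.2 and 78.7 against 139 and 213 (-0.49, SE 0.50). *Chac1*, named after its values were seen, was the only gene of this list with no overlap, at 1942 and 1609 against 1459 and 1351. High MMP samples lay above low MMP samples in this way in 13.5% of all genes.

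**Figure D4:**
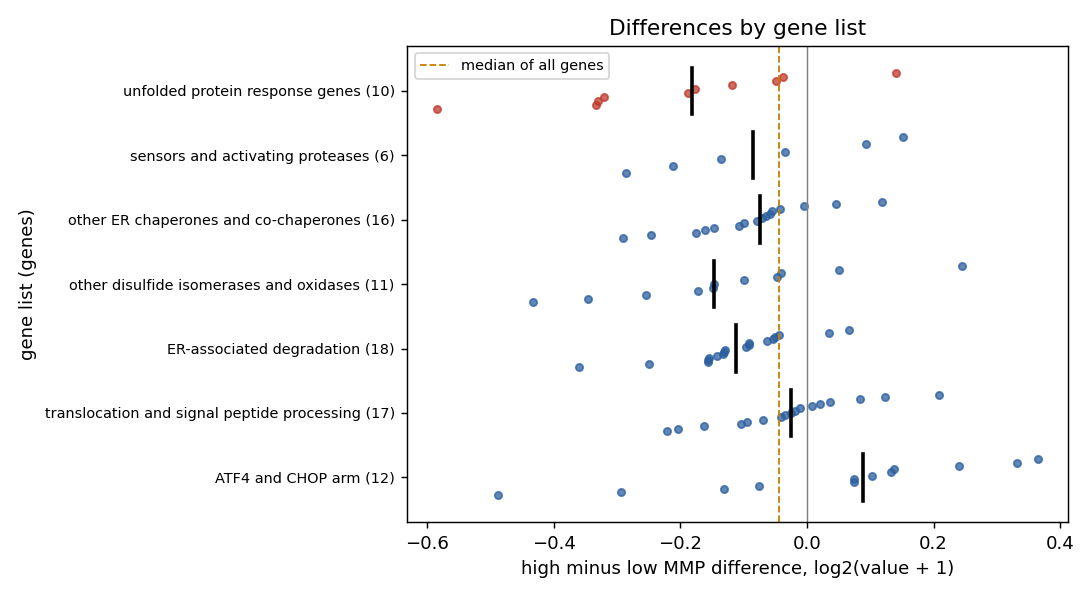
High minus low MMP differences on the log2(value + 1) scale for the 10 genes (red) and for the 6 pathway lists (blue), 1 point per gene, with the median of each list as a black bar and the median of all genes as a dashed line. The medians run from -0.18 for the 10 genes to 0.088 for the ATF4 and CHOP arm.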

How the data were processed

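RNA was sequenced from 2 high MMP and 2 low MMP samples of 4T1 cells, with groups and replicate numbers taken from the sample titles. Libraries were made from 200 ng of RNA with a stranded mRNA kit. The authors aligned reads to the mouse transcriptome (GRCm38/mm10) with STAR and counted them per gene; HTSeq is also named in the submitters' processing notes, and versions, annotation release and strand setting are not given in the sources used here. The deposited values are a normalized signal, each library being divided by its total and scaled to 20000000. Every gene listed was above 0 in 2 or more samples. All 4 columns belonged to samples of the series.

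The test was limma 3.58.1 (trend, R 4.3.3) on log2(value + 1), high against low MMP being the only factor, with Benjamini-Hochberg adjustment over 20197 genes and a threshold of 0.05. A fold change on this scale understates that of low genes. Every value was a whole multiple of 1 step (within 0.05 of a read for 100% of values), so reads were recovered for edgeR 4.0.16 and DESeq2 1.42.0. Replicates of a group differed by more than sampling noise (chi-square of 43.7 per gene in high MMP and 9.18 in low MMP). Whether the samples came from separate cultures is not labelled, so p-values measure the spread between these samples. Identifiers were matched to GENCODE M21 (19993 of 20197), and exon lengths are unions over its transcripts. The members and lists were chosen with earlier results of these data known. Named genes are the 10 members, the sensors, the highest and lowest difference of each other list among genes with a mean of at least 100, list genes with an unadjusted p under 0.05, and the 5 genes nearest in profile. The fits were also run on simulated counts with known changes. Those counts had the same spread in both groups, unlike these samples, so they do not show how the fits behave here.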

Additional observations from a re-analysis of the deposited data

How the results depend on the processing

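The count of calls depended on the model. Over all genes it was 0 in limma and in edgeR with no block, 106 in edgeR with the replicate number as a block, 118 in DESeq2, and with crossed numbers as the block 0 in limma and 733 in edgeR. The crossed block was chosen after seeing the data because deviations of same-numbered samples had a correlation of -0.421 across genes. The crossed edgeR fit called 1 member (*Dnajb9*) and 3 genes of the pathway lists (*Txndc11*, *Atf3* and *Chac1*); no other setting called a member. The limma replicate block called 0 genes; in this balanced design the block cannot move limma's differences, so the members' median of -0.18 was fixed under it. Median-of-ratios rescaling lowered the members below with no overlap to 4.

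When 1 library was left out, the lone sample of its group was assumed to vary like the others, and no gene was called. The members' median lay between -0.25 and -0.12. The sign turned within these ranges for *Calr* (-0.21 to 0.13), *Manf* (-0.23 to 0.13), *Ern1* (-0.43 to 0.0058), *Eif2ak3* (-0.19 to 0.12), *Atf6* (-0.036 to 0.34), *Atf6b* (-0.41 to 0.14), *Mbtps2* (-0.036 to 0.22), *Hyou1* (-0.63 to 0.14), *Ube2j1* (-0.0045 to 0.14), *Ssr4* (-0.010 to 0.26), *Atf3* (-0.64 to 1.37) and *Ddit3* (-1.12 to 0.14). It also turned for *Calr* in DESeq2 (0.0032) and after median-of-ratios rescaling (0.0029), and for *Eif2ak3* after median-of-ratios rescaling (0.0072) and quantile normalization (0.038), in DESeq2 (0.013) and in edgeR (0.0092 with and without its filter, 0.0038 with the replicate block, 0.0042 with the crossed block). The cause was not tested. The members rest on 207 or more reads per library, and with 2 samples per group the spread between samples sets the width of the intervals.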

Other observations

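The median profile of the 10 genes over the 4 samples, each gene centred on its own log2 mean, was -0.10 and -0.09 in high MMP replicates 1 and 2 and 0.03 and 0.18 in low MMP replicates 1 and 2. *Xbp1* lay nearest to it among the members, at a root mean square distance of 0.0125 on the log2 scale, and *Dnajb9* farthest, at 0.257. Among 9989 other genes averaging 100 or more normalised reads, 2 lay nearer to it than *Xbp1* and 8867 nearer than *Dnajb9*. The number was 122 to 940 for *Creld2*, *Sdf2l1*, *Hsp90b1* and *Pdia4*. It was 5006 for *Calr*, 5203 for *Manf*, 6513 for *Hspa5* and 7135 for *Herpud1*, so the profile was not common to all 10 genes. The 5 nearest of these 9989 genes were *Hnrnpdl* (0.00799), *Jtb* (0.0113), *Mtf2* (0.0127), *Dbr1* (0.0129) and *Zfp748* (0.0130). They do not belong to the lists of the pathway. *Hnrnpdl* had 5820.04 and 5908 normalised reads in high MMP and 6419.7 and 7119 in low MMP cells. *Jtb* had 499 and 513 against 550.1 and 614. With 4 samples this likeness is a description of these libraries.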
